A study of Mus musculus with 30 samples.

Results

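Cancer-associated fibroblasts (CAFs) sorted without CD34 on their surface, called CAF1, were compared with CAFs sorted with it, called CAF2, across all measured genes. The comparison used 10 of the 30 bulk RNA-seq libraries of the study, 5 of CAF1 and 5 of CAF2, and the 2 libraries of a tumour were matched by the tumour number in the labels (5, 6, 8, 10 and 11). Each tumour came from a separate mouse of the strain FVB/N-Tg(MMTVPyVT)634Mul/J, which carries the polyoma virus middle T antigen under the mammary tumour virus promoter and develops mammary adenocarcinomas. That promoter drives the transgene in mammary epithelium, and the origin of the cells in the fibroblast gates was not tested. Tumours were taken at a volume of 750 mm3, the labels name no treatment or further allele, and tumour-free fibroblasts are not among the groups. Both gates took cells negative for the leukocyte marker CD45 and the endothelial marker CD31 and positive for CD90, the product of Thy1. CAF1 was the CD34-negative part of that gate and CAF2 the CD34-positive part. Each library is a sorted bulk population. Levels in the 5 endothelial libraries of the same tumours, sorted as CD45-negative and CD31-positive, are given beside some genes.

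Fibroblasts of the mammary gland and its tumours build the collagen matrix and send growth factors, cytokines and lipid mediators to neighbouring cells. CD34, a sialomucin, marks fibroblasts of the connective tissue and of the outer coat of vessels, while mural cells, which are pericytes and vascular smooth muscle cells, surround the endothelium and depend on Notch3, a receptor of the Notch pathway. Transcription factors fix which programme such cells run, receptors and channels set what they respond to, and secreted proteins and enzymes are what they supply to the tissue.

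Levels are CPM, counts relative to the library total, scaled by the TMM factors of the 10 libraries, and 5 values in a row stand for tumours 5, 6, 8, 10 and 11 in this order. Endothelial levels used TMM factors computed over the fibroblast and endothelial libraries together, put on the scale of the 10. Fold changes are log2 ratios of CAF1 over CAF2 with their SE, so a positive value means higher in CAF1. Genes rose or fell where edgeR's quasi-likelihood F test gave an adjusted p under 0.05 (Benjamini-Hochberg, over every gene tested). This fit was unpaired, with no term for tumour, and results with tumour as a block are given beside some counts and at the end. CPM are not divided by gene length, so levels of different genes are not comparable.

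The genes of the gates came first. Cd34 (Entrez 12490) stood at 22.0, 71.1, 11.1, 92.3 and 113 CPM in CAF1, against 1514, 1542, 1402, 1283 and 1992 CPM in CAF2, and the groups did not overlap, which repeats the sort and is no finding. Thy1 (Entrez 21838), on which both gates selected, had 44.8, 64.7, 28.2, 67.9 and 33.6 CPM in the CAF1 libraries and 22.3, 50.3, 25.2, 54.1 and 67.0 CPM in the CAF2 libraries. Its groups overlapped, and its log2 fold change of 0.13 ± 0.33 did not pass the test (adjusted p = 0.836). Notch3 (Entrez 18131) was measured at 83.2, 76.4, 59.0, 25.5 and 33.8 CPM in CAF1, against 1.93, 2.08, 1.61, 0.970 and 0.394 CPM in CAF2, a log2 fold change of 5.33 ± 0.44 (adjusted p = 1.16e-05). Sema3c (Entrez 20348), a secreted semaphorin, had 17.4, 19.0, 8.18, 27.8 and 18.5 CPM in CAF1, against 638, 495, 521, 665 and 709 CPM in CAF2, a log2 fold change of -5.06 ± 0.31 (adjusted p = 1.83e-06). Every CAF1 library lay above every CAF2 library for Notch3 and below every one for Sema3c.

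Total counts were 8172446 to 10850530 in CAF1 and 8560792 to 11957076 in CAF2, with 13453 to 13756 and 12075 to 13490 genes detected. A count of 3, the most that 0 observed counts allow at 95% confidence, stood for 0.217 to 0.567 scaled CPM in CAF1 and 0.224 to 0.39 in CAF2, and such limits cover counting error only. The summed level of 12 luminal epithelial markers, which sorted fibroblasts should lack, was 260.1 to 1968 CPM in CAF1 and 10.3 to 567 CPM in CAF2, where tumour 6 held the highest value and the other 4 tumours at most 37.3 CPM. For 5 myoepithelial markers the sums were 88.2 to 2932 CPM in CAF1, highest in tumour 5, and 2.39 to 11.4 CPM in CAF2. The sums of 10 pericyte markers were 700.3 to 2315 CPM in CAF1 and 98.5 to 156 CPM in CAF2, those of 8 endothelial markers 5.29 to 27.0 and 1.58 to 13.4 CPM, and those of 8 macrophage markers 22.6 to 76.7 and 11.4 to 30.6 CPM. The endothelial libraries had luminal sums of 171.2 to 2316 CPM and myoepithelial sums of 46.04 to 1040 CPM. Their pericyte sums were 726.5 to 1600 CPM. Endothelial means given below thus describe those libraries, not endothelial cells alone. The part of these other cells in the results below was not tested, and in bulk RNA fewer cells of a type and less RNA per cell cannot be told apart. Leaving out the CAF1 library of tumour 5 and the CAF2 library of tumour 6 gave 2044 calls in place of 2370, and 1850 genes were called in both fits. The CAF1 libraries kept there still had luminal sums of 260.1 to 1968 CPM, highest in tumour 6, and the CAF2 libraries at most 37.3 CPM.

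**Figure D1:**
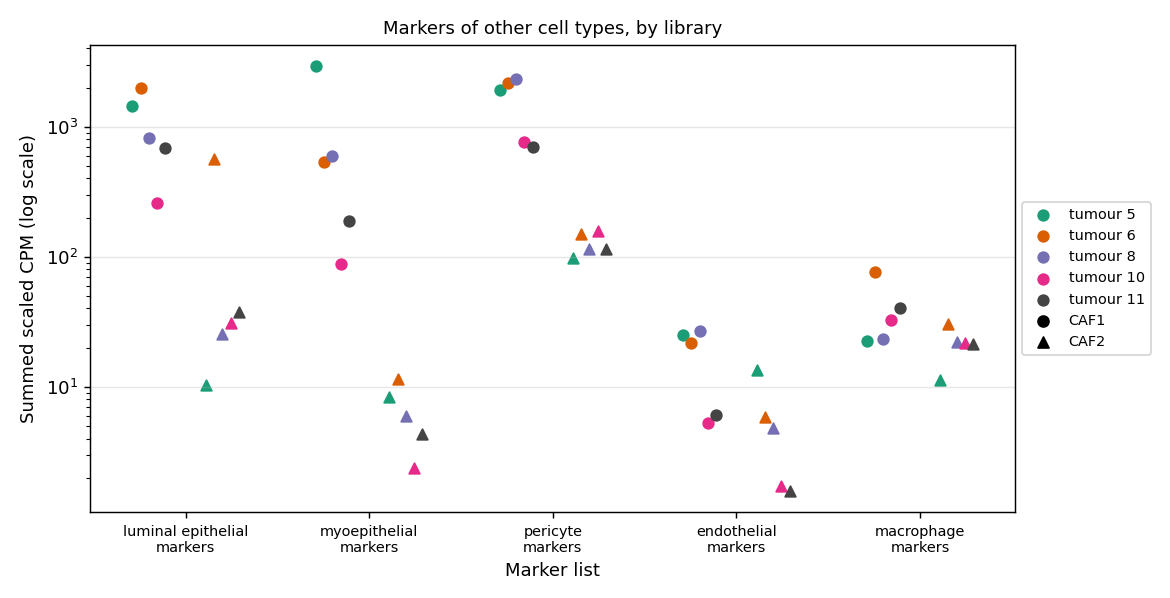
Summed level of marker genes of other cell types (scaled CPM, log axis) in each of the 5 CAF1 libraries, on the left of each pair, and the 5 CAF2 libraries, on the right; each point is 1 library and colours mark the tumour. The luminal and myoepithelial sums were higher in CAF1 in every tumour, and the CAF2 library of tumour 6 stood apart with a luminal sum of 567 CPM.

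Of 12149 genes tested, 2370 passed the test, which is 19.5%. Of these, 1327 were higher in CAF1 (10.9%) and 1043 were lower (8.59%). The libraries of both groups did not overlap, with CAF1 above, for 1011 genes (8.32%), and with CAF1 below for 904 genes (7.44%). The direction was the same in 5 of 5 tumours for 2264 of the 2370 genes, and 1638 changed by at least 2-fold. These shares are the background for the counts below: receptors (44.2% of 217 tested), secreted proteins (45.2% of 239) and channels with their signalling partners (30.6% of 366) stood above 19.5%. Genes of metabolism (20.9% of 441) and transcription factors (16% of 511) stood near it or below it. Of those factors, 338 were zinc finger proteins named Zfp, Zbtb, Zscan or Zkscan, with 5.03% called. Of the other 173, 50 rose and 15 fell, or 37.6%. This split is by gene symbol, so the 173 still hold zinc finger factors of other names. Of the 126 genes named here that passed the test, 7 did not pass in a fit of all 30 libraries (Zeb1, Il1rl2, Tgfbr3, Il34, Cxcl14, Penk and Gja1, with adjusted p of 0.0704 to 0.22), and Col17a1 did not pass in a voom fit (adjusted p = 0.0526). The endothelial mean was at least 0.5 times the CAF1 mean for 62.1% of the genes higher in CAF1, for 63.2% of those lower and for 81.1% of all genes tested.

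**Figure D2:**
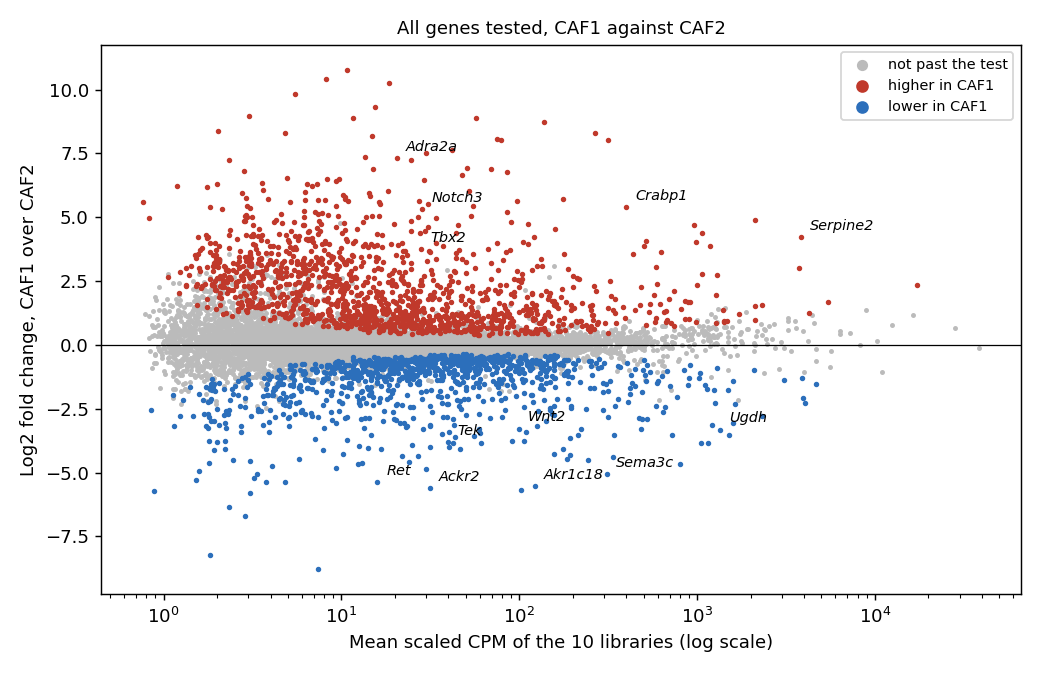
Log2 fold change of CAF1 over CAF2 (vertical axis) against the mean scaled CPM of the 10 libraries (horizontal axis, log scale) for 12149 genes; grey points did not pass the test, red points are the 1327 genes higher in CAF1 and blue points the 1043 genes lower. Named genes are labelled, among them Adra2a and Notch3 above 0 and Ret and Akr1c18 below 0.

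Several of the largest rises were of genes with few or no counts in CAF2. Olfr558, an olfactory-type receptor, was at 30.7, 22.1, 33.3, 9.17 and 12.1 CPM in CAF1, while all 5 CAF2 libraries had 0 counts. H2-M9, a nonclassical MHC class I gene, was at 32.2, 22.3, 11.3, 5.76 and 10.8 CPM in CAF1 and likewise at 0 in every CAF2 library; reads of MHC class I paralogs can be shared among copies, so its level is uncertain. Tmem273, a transmembrane protein, was at 64.8, 51.4, 41.7, 14.9 and 11.3 CPM in CAF1, while 1 CAF2 library had 0.0841 CPM and the other 4 had 0. No fold change is given where every library of 1 group had at most 3 counts, because a fitted ratio against a group at its counting limit depends on the prior count of the fit. Ratios given below against groups with only a few counts, as for Trpc6 and Pde1b, depend on it in part. Among the falls, Tmem132b was the mirror case, with 13.0, 18.2, 11.8, 21.2 and 9.95 CPM in CAF2 and at most 0.119 CPM in any CAF1 library. Opcml, a cell adhesion molecule of the IgLON family, had 1.45, 1.31, 0.703, 3.53 and 3.40 CPM in CAF1, against 78.6, 41.9, 26.1, 71.3 and 70.4 CPM in CAF2 (log2 fold change -4.87 ± 0.44, adjusted p = 1.96e-05). For these genes the groups did not overlap, and within CAF1 tumours 10 and 11 held the lowest values of Olfr558, H2-M9 and Tmem273. Their pericyte sums, 768 and 700.3 CPM, were also the lowest of CAF1, against 1918 to 2315 CPM in tumours 5, 6 and 8.

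Promoters of a few genes are shown because their factors or receptors part the groups in this comparison. RBPJ, the DNA-binding partner of activated Notch, recognises TGGGAA, and Zeb1, lower in CAF1 below, binds CACCTG. Each line gives the RefSeq window of 250 bases before to 50 after the first listed start (GRCm38.p6), with matches to TGGGAA or CACCTG on either strand in capitals. Adra2a and Vdr encode receptors that were higher in CAF1, Gpr1 a receptor and Zfp385a a zinc finger protein that were lower.
Adra2a, chr19:54045009-54045308, plus strand: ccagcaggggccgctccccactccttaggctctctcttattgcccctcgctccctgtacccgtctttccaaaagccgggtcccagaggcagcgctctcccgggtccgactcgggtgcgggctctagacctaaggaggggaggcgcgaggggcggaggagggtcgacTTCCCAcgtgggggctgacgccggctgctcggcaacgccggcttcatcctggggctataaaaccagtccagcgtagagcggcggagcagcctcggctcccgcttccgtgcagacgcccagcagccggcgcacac
Vdr, chr15:97908247-97908546, minus strand: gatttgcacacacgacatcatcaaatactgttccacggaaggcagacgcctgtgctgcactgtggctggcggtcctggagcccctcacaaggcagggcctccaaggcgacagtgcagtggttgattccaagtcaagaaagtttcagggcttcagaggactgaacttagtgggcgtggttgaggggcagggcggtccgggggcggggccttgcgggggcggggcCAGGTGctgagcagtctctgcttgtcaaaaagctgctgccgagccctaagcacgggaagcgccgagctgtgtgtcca
Gpr1, chr1:63214232-63214531, minus strand: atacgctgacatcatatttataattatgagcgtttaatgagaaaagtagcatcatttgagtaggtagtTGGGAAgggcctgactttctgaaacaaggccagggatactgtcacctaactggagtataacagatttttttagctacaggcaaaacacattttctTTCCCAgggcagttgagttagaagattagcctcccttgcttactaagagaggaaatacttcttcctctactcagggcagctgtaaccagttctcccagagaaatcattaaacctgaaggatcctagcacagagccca
Zfp385a, chr15:103340037-103340336, minus strand: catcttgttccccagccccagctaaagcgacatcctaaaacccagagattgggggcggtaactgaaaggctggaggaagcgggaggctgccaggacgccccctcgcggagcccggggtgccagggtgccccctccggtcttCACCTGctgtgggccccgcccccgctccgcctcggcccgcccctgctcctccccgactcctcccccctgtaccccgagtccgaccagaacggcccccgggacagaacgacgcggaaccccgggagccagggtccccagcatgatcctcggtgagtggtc
The TGGGAA match of Adra2a began at position -84 from the start, and those of Gpr1 at -182 and -87. CACCTG began at -27 in Vdr and at -109 in Zfp385a. Windows were found for 9699 genes tested. CACCTG was present in 22.1% of 1002 windows of genes higher in CAF1, in 14.7% of 788 windows of genes lower in CAF1, in 16.3% of all windows of genes tested and in 20.03% of all 27025 windows. TGGGAA was present in 23.9%, 21.1%, 22.9% and 25.5% of the same sets. AGGTCA, a site of nuclear receptors, was present in 12.5%, 11.5%, 11.6% and 16.04%, and in none of the 4 windows shown. The letters of these motifs do not overlap each other in the windows shown, and a match describes the sequence only.

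Among transcription factors, Heyl, Tbx2, Epas1 and Foxs1, all known from mural cells, were higher in CAF1, and Ebf2, Zfp385a, Klf3 and Osr2 were lower. Of 511 tested, 57 rose and 25 fell in CAF1. Of 15 factors listed for mural cells, 9 rose and 3 fell (with tumour as a block, 8 and 2). Their median log2 fold change was 1.93, beside 0.008 over all genes tested. Heyl, a repressor switched on by Notch, was at 85.4, 74.3, 72.0, 46.1 and 73.3 CPM in CAF1, against 12.4, 11.1, 23.3, 10 and 5.32 CPM in CAF2 (log2 fold change 2.50 ± 0.32, adjusted p = 0.000173). Tbx2, a T-box repressor, was at 70.8, 53.3, 70.8, 31.6 and 35.7 CPM in CAF1, against 5.64, 3.12, 4.91, 2.02 and 3.65 CPM in CAF2 (log2 fold change 3.76 ± 0.32, adjusted p = 1.34e-05). Neither gene's groups overlapped, and for both the lowest CAF1 value was in tumour 10. Epas1, the hypoxia-inducible factor HIF-2 alpha, stood at 49.7, 53.8, 37.4, 35.1 and 25.5 CPM in CAF1, against 6.22, 3.90, 3.84, 3.58 and 3.55 CPM in CAF2 (log2 fold change 3.25 ± 0.25), and its mean in the endothelial libraries was 134 CPM. Foxs1, a forkhead factor, stood at 53.5, 52.2, 58.0, 45.8 and 29.3 CPM in CAF1, against 7.15, 10.8, 13.2, 3.88 and 7.10 CPM in CAF2 (log2 fold change 2.51 ± 0.30), with an endothelial mean of 5.64 CPM. Thus CAF1 lay above the endothelial mean for Foxs1 and below it for Epas1, and CAF2 was low for Epas1 in all 5 tumours.

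Further factors rose by smaller steps or at lower levels. Foxc2, a forkhead factor of vascular development, had 26.7, 27.8, 11.8, 4.23 and 5.29 CPM in CAF1, against 0, 0.520, 0.0892, 1.12 and 0.296 CPM in CAF2 (log2 fold change 5.17 ± 0.79), so that the CAF1 libraries of tumours 5 and 6 held several times the level of tumours 10 and 11. Tbx3, a T-box factor close to Tbx2, rose with a log2 fold change of 2.81 ± 0.31, with means of 33.7 ± 12.5 CPM across CAF1 and 4.83 ± 1.54 CPM across CAF2 (SD, n = 5 each). Msx1, a homeobox repressor downstream of BMP signals, was at 37.7 ± 13.0 CPM across CAF1 and 8.75 ± 4.12 CPM across CAF2 (log2 fold change 2.11 ± 0.33). Nr2f2, an orphan nuclear receptor of veins and stroma, was at 26.5 ± 11.2 CPM across CAF1 and 7.0 ± 3.67 CPM across CAF2 (log2 fold change 1.93 ± 0.38), one of 6 that rose among 20 orphan receptors and PPARs, of which 0 fell. Bhlhe40, a repressor responsive to hypoxia and the circadian clock, stood at 738, 792, 1173, 748 and 1351 CPM in CAF1, against 329, 384, 477, 357 and 374 CPM in CAF2 (log2 fold change 1.32 ± 0.23, adjusted p = 0.00155). Runx1, a factor of blood and mesenchyme, had 209, 211, 114, 292 and 192 CPM in CAF1, against 116, 127, 64.0, 108 and 56.5 CPM in CAF2 (log2 fold change 1.11 ± 0.28); its groups overlapped, because CAF1 of tumour 8 lay below CAF2 of tumours 5 and 6, although CAF1 was higher within every tumour. Irf8, an interferon regulatory factor best known in myeloid cells, rose as well, with 27.5, 29.6, 17.6, 8.82 and 11.3 CPM in CAF1, against 2.02, 2.47, 2.41, 0.821 and 3.06 CPM in CAF2 (log2 fold change 3.16 ± 0.41), beside the macrophage marker sums given above.

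Among the factors that fell in CAF1 were both Ebf genes. Of 13 adipogenic factors tested, which hold both, 4 rose, 3 fell and 6 did not pass, a count of 7 that was 4 without tumour 6. Of the rises in that list, Klf5, a Kruppel-like factor also of epithelium, was at 87.6, 48.2, 20.5, 10.1 and 20.4 CPM in CAF1, against 4.04, 11.6, 4.55, 7.54 and 6.21 CPM in CAF2 (log2 fold change 2.48 ± 0.53). Ebf2, an early B cell factor that marks adipose precursors, was at 34.5, 31.7, 32.3, 28.8 and 22.5 CPM in CAF1, against 85.5, 82.9, 74.9, 74.3 and 107 CPM in CAF2 (log2 fold change -1.50 ± 0.15, adjusted p = 4.65e-05). Its relative Ebf1 fell less, with 81.5 ± 7.07 CPM across CAF1 and 141 ± 28.7 CPM across CAF2 (log2 fold change -0.78 ± 0.16). Both Ebf genes were among the 3 falls of the mural cell list, while Heyl, Tbx2 and Foxs1 were among its 9 rises. The third fall was a T-box factor other than Tbx2 and Tbx3, lower in CAF1 in 5 of 5 tumours (log2 fold change -0.66 ± 0.21). Its adjusted p was 0.0489, and 0.0715 with tumour as a block. Zfp385a, a zinc finger protein that binds nucleic acids and p53, stood at 5.2, 6.92, 5.27, 6.23 and 10.2 CPM in CAF1, against 30.3, 39.3, 20.1, 39.9 and 38.8 CPM in CAF2 (log2 fold change -2.33 ± 0.25, adjusted p = 5.25e-05). Klf3, a repressor of the Kruppel-like family, stood at 49.5, 46.3, 42.7, 59.2 and 59.3 CPM in CAF1, against 115, 114, 114, 154 and 160.4 CPM in CAF2 (log2 fold change -1.35 ± 0.16, adjusted p = 0.000113). All 5 CAF1 libraries lay below all 5 CAF2 libraries for Ebf2, Ebf1, Zfp385a and Klf3. Osr2, an odd-skipped factor of connective tissue, ran at 28.0, 63.3, 13.1, 52.5 and 79.3 CPM in CAF1, against 136, 151, 126, 102 and 175 CPM in CAF2 (log2 fold change -1.55 ± 0.38). Zeb1, a repressor known from epithelial-mesenchymal transition, fell by less, with a log2 fold change of -0.83 ± 0.18.

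Mesenchymal identity factors went both ways: of 23 tested, 6 rose, 2 fell, and the median log2 fold change was -0.06. Prrx1, a pan-fibroblast homeobox factor, had 102, 99.1, 110.1, 119.5 and 91.6 CPM in CAF1, against 145, 128, 149.9, 99.8 and 176 CPM in CAF2, with overlapping groups (log2 fold change -0.42 ± 0.16, adjusted p = 0.0939). Few Hox genes, which record position along the body, passed the test: 1 of 17 tested rose and 1 fell, and 1 or 2 passed in every fit that left out a library or a tumour, 1 being the count in 11 of those 15 fits. Hoxd8 stood at 30.2 ± 11.6 CPM across CAF1 and 21.9 ± 5.68 CPM across CAF2, and did not pass (adjusted p = 0.339). Zinc finger factors named Zfp, Zbtb, Zscan or Zkscan, the largest family, had 7 rises and 10 falls among 338, or 5.03%; their count of 17 was 8 without CAF1 of tumour 6, tumour 6 or tumour 11, 9 without CAF2 of tumour 11, 10 without CAF2 of tumour 8 or tumour 8 and 11 without CAF1 of tumour 5, CAF1 of tumour 8 or tumour 10. Of 8 epithelial factors tested, 5 rose, 1 fell (Esr1) and 2 did not pass, a count of 6 that was 3 without CAF1 of tumour 5, CAF2 of tumour 11, tumour 5 or tumour 11. Trp63, which defines basal cells, was at 42.2, 4.65, 9.58, 1.76 and 3.21 CPM in CAF1, against 0, 0.130, 0.535, 0 and 0.296 CPM in CAF2. Ovol1 was at 54.8, 12.3, 7.65, 1.53 and 2.83 CPM in CAF1, against 0, 1.82, 0, 0 and 0.0986 CPM in CAF2. The highest CAF1 value of both was in tumour 5, the library with the highest myoepithelial sum, and their endothelial means were 6.12 and 7.73 CPM. For the class as a whole, leaving out 1 library or tumour gave 37 to 58 rises and 15 to 30 falls, the fewest rises without tumour 8, and the falls numbered 15 without tumour 6 or its CAF1 library and 16 without tumour 11.

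**Figure D3:**
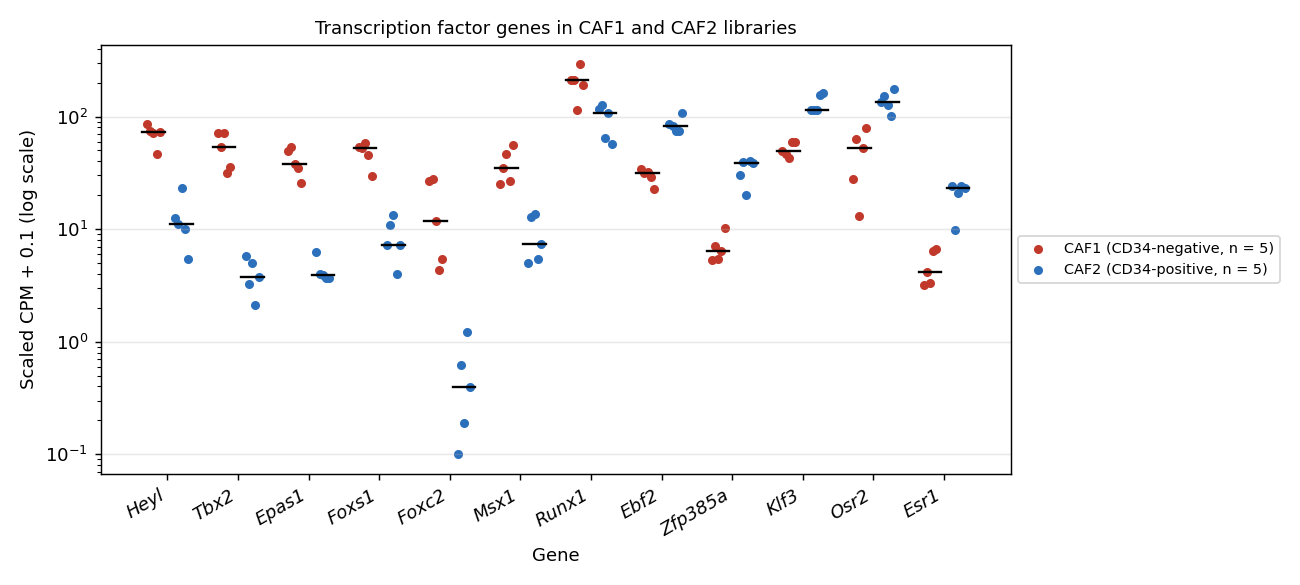
Scaled CPM (log axis, with 0.1 CPM added for plotting) of 12 transcription factor genes in each library; for each gene the 5 CAF1 libraries are on the left in red and the 5 CAF2 libraries on the right in blue, with a bar at the median. The first 7 genes lay higher in CAF1 and the last 5 lower, and the groups overlapped only for Runx1.

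Receptors differed often, with Adra2a, Ednrb, Unc5b and Tnfrsf21 among those higher in CAF1 and Ackr2, Ret, Tek and Il1r2 among those lower: 59 of 217 rose and 37 fell. Of 90 G protein-coupled receptors tested, 25 rose and 16 fell. Adra2a, the alpha-2A adrenergic receptor, whose promoter is shown above, was at 62.1, 41.1, 52.2, 16 and 32.3 CPM in CAF1, against 0, 0.390, 0.624, 0 and 0.296 CPM in CAF2 (log2 fold change 7.32 ± 0.61, adjusted p = 1.16e-05). Ednrb, an endothelin receptor, was at 71.2, 35.8, 16.9, 8.35 and 16.6 CPM in CAF1, against 0.336, 0.260, 0.357, 0.0746 and 0.197 CPM in CAF2 (log2 fold change 6.89 ± 0.69, adjusted p = 3.91e-05). The CAF2 values of both lay near the level of a few counts, and the lowest CAF1 values were in tumour 10. Their endothelial means were 6.97 CPM for Adra2a, below CAF1, and 435 CPM for Ednrb, above every CAF1 library. Gprc5c, an orphan receptor, rose with a log2 fold change of 5.66 ± 0.72. Among the falls were Ackr2, Ackr1 and Gpr1. Ackr2, a scavenger of inflammatory CC chemokines, was at 0, 0.715, 0.176, 3.65 and 2.64 CPM in CAF1, against 79.7, 48.0, 43.0, 59.0 and 76.8 CPM in CAF2. Ackr1, which binds many chemokines on venules and red cells, was at 0, 0.477, 0, 1.65 and 0.567 CPM in CAF1, against 8.07, 10.8, 6.69, 14.0 and 15.6 CPM in CAF2, and Gpr1, a receptor for chemerin, was at 0.0723, 1.07, 0.0879, 1.41 and 0.756 CPM in CAF1, against 25.1, 16.3, 11.7, 14.0 and 22.9 CPM in CAF2. Their log2 fold changes were -5.60 ± 0.67, -4.45 ± 0.76 and -4.83 ± 0.58, and no CAF1 library came near a CAF2 library.

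Of 35 receptor tyrosine kinases, 12 rose and 6 fell. Ptk7, a pseudokinase of WNT and planar polarity signalling, stood at 50.3, 81.6, 34.8, 28.0 and 85.2 CPM in CAF1, against 8.24, 13.5, 8.83, 6.87 and 3.94 CPM in CAF2 (log2 fold change 2.76 ± 0.37, adjusted p = 0.000245). Ret, the receptor kinase for ligands of the GDNF family, stood at 1.08, 0.835, 0.352, 0.941 and 0.378 CPM in CAF1, against 42.5, 20.9, 19.5, 44.6 and 27.8 CPM in CAF2 (log2 fold change -5.36 ± 0.37, adjusted p = 4.62e-06). Tek, the angiopoietin receptor TIE2, stood at 3.47, 2.62, 1.49, 9.76 and 10.01 CPM in CAF1, against 83.7, 54.9, 48.5, 79.0 and 104 CPM in CAF2 (log2 fold change -3.82 ± 0.46). Tek is a defining receptor of endothelium, where its mean was 141 CPM. The sum of 8 endothelial markers was 5.29 to 27.0 CPM in CAF1 and 1.58 to 13.4 CPM in CAF2, and its part in the level of Tek was not tested. Of 16 guidance receptors, 9 rose and 0 fell (with tumour as a block, 10 and 1), with a median log2 fold change of 1.18. Unc5b, a netrin receptor, was at 58.7, 52.6, 37.1, 33.9 and 33.8 CPM in CAF1, against 0.757, 8.19, 6.07, 1.72 and 2.46 CPM in CAF2 (log2 fold change 3.54 ± 0.49). Its relative Unc5c rose by 2.23 ± 0.40 on the log2 scale, and Nrp2, a receptor for class 3 semaphorins and VEGF-C, by 2.45 ± 0.42. Endothelial means differed widely for these 3 genes, at 48.3, 0.279 and 113 CPM.

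Of 30 cytokine receptors, 3 rose and 5 fell (with tumour as a block, 5 and 5). The falls held 3 receptors of the IL1 family, Il1r2, Il1rl1 and Il1rl2, while the other 2 members of that family on the list did not pass. Il1r2, a decoy that binds IL1 without signalling, was at 6.21, 5.84, 4.48, 7.76 and 6.04 CPM in CAF1, against 85.0, 56.1, 65.0, 52.5 and 79.6 CPM in CAF2 (log2 fold change -3.48 ± 0.20, adjusted p = 1.17e-06). Il1rl1, the IL33 receptor ST2, was at 11.9, 19.7, 2.73, 8.0 and 8.31 CPM in CAF1, against 62.1, 92.3, 35.3, 52.2 and 21.4 CPM in CAF2 (log2 fold change -2.37 ± 0.47). Il1rl2, the receptor of IL36, fell by less (-1.34 ± 0.22). Tlr4, the receptor for endotoxin, stood at 5.71, 3.93, 5.71, 6.0 and 7.75 CPM in CAF1, against 26.0, 15.6, 19.5, 22.3 and 30.1 CPM in CAF2 (log2 fold change -1.97 ± 0.23, adjusted p = 9.44e-05). None of these genes had overlapping groups, and in CAF2 the range of Il1rl1 was wide, with tumour 6 highest and tumour 11 lowest. Lifr, a receptor of LIF and oncostatin M, was among the rises of cytokine receptors, with 26.8 ± 4.34 CPM across CAF1 and 14.3 ± 2.07 CPM across CAF2 (log2 fold change 0.91 ± 0.16). In the TNF receptor superfamily 5 of 16 rose and 2 fell. Tnfrsf21, the death receptor DR6, was at 256, 237, 274, 70.2 and 209.7 CPM in CAF1, against 36.6, 26.4, 19.6, 33.8 and 21.2 CPM in CAF2 (log2 fold change 2.93 ± 0.34, adjusted p = 8.87e-05), with tumour 10 lowest among CAF1. Cd40, a costimulatory receptor, also rose (2.46 ± 0.39). Tnfrsf11b, which encodes osteoprotegerin, a secreted decoy for RANKL, fell, with 68.9, 54.0, 116, 70.9 and 59.9 CPM in CAF1, against 312, 145, 201, 222 and 158 CPM in CAF2 (log2 fold change -1.49 ± 0.25).

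Nuclear hormone receptors went both ways. Vdr, the vitamin D receptor, was at 55.0, 16.9, 28.9, 8.0 and 10.6 CPM in CAF1, against 1.18, 3.90, 1.52, 5.07 and 0.887 CPM in CAF2 (log2 fold change 3.26 ± 0.61, adjusted p = 0.00232), and its CAF1 level was uneven, highest in tumour 5. The myoepithelial sums of the same CAF1 libraries were 2932, 531, 599, 88.2 and 189 CPM, which ranks the tumours as Vdr does. The part of myoepithelial cells in the level of Vdr was not tested. Esr1, oestrogen receptor alpha, was at 3.11, 4.05, 3.25, 6.35 and 6.61 CPM in CAF1, against 24.1, 9.62, 20.7, 24.0 and 23.2 CPM in CAF2 (log2 fold change -2.14 ± 0.31, adjusted p = 0.000381). Esr1 is also a gene of luminal epithelium, whose marker sums were 260.1 to 1968 CPM in CAF1 and 10.3 to 567 CPM in CAF2; their part in the level of Esr1 was not tested. In all, 3 of 12 steroid and thyroid hormone receptors rose and 2 fell. Of 13 receptors of the TGF-beta superfamily, 2 rose and 4 fell (with tumour as a block, 1 and 4), but this count of 6 was 1 without tumour 6, 2 without CAF1 of tumour 6 or tumour 5 and 3 without CAF1 of tumour 5 or tumour 10. Among its members that fell was Tgfbr3, the coreceptor betaglycan, with 40.1, 57.4, 54.6, 105 and 119 CPM in CAF1, against 274, 154, 163, 190.2 and 172 CPM in CAF2 (log2 fold change -1.34 ± 0.29).

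**Figure D4:**
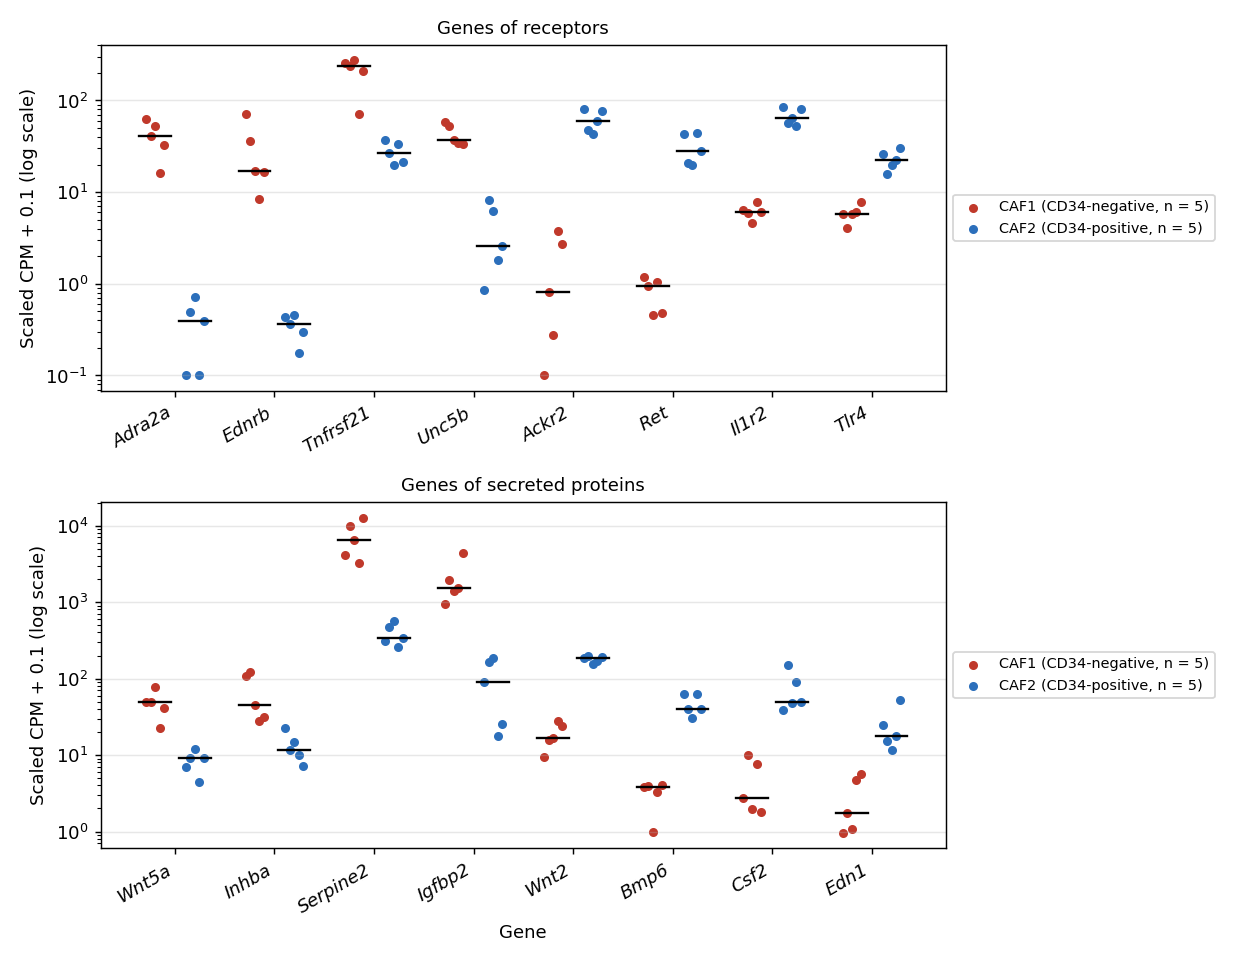
Scaled CPM (log axis, with 0.1 CPM added for plotting) of 8 genes of receptors (upper panel) and 8 genes of secreted proteins (lower panel) in each library, with CAF1 in red on the left and CAF2 in blue on the right of each pair and a bar at the median. In each panel the first 4 genes lay higher in CAF1 and the last 4 lower, with no overlap between groups.

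Secreted proteins differed as often as receptors: 68 of 239 rose and 40 fell. The WNT ligands parted. Wnt5a, which acts mainly without beta-catenin, was at 49.6, 49.1, 77.9, 22.2 and 40.6 CPM in CAF1, against 6.90, 8.97, 12, 4.40 and 8.97 CPM in CAF2 (log2 fold change 2.55 ± 0.33, adjusted p = 0.000187). Wnt2, a ligand of the beta-catenin route, was at 9.25, 15.6, 16.5, 27.9 and 24.2 CPM in CAF1, against 186, 198, 157, 170.4 and 192 CPM in CAF2 (log2 fold change -3.28 ± 0.26, adjusted p = 1.02e-05). Dkk3, of the Dickkopf family, rose with 278 ± 134 CPM across CAF1 and 86.4 ± 24.7 CPM across CAF2 (log2 fold change 1.69 ± 0.33). Of 19 WNT ligands, antagonists and R-spondins, 4 rose and 4 fell.

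Of 24 ligands and antagonists of the activin and BMP branches tested, 4 rose, 6 fell and 14 did not pass. Inhba, the subunit of activin A, stood at 109, 120.1, 45.5, 27.8 and 31.7 CPM in CAF1, against 22.6, 11.7, 14.9, 10 and 7.0 CPM in CAF2 (log2 fold change 2.34 ± 0.45, adjusted p = 0.00281), with tumours 5 and 6 highest in CAF1. Fstl3, which binds and blocks activins, stood at 19.5, 21.5, 17.4, 13.5 and 17.4 CPM in CAF1, against 1.35, 5.59, 5.98, 1.42 and 2.66 CPM in CAF2 (log2 fold change 2.41 ± 0.40). Bmp6 stood at 3.76, 3.82, 0.879, 3.18 and 3.97 CPM in CAF1, against 62.7, 39.5, 30.1, 62.5 and 40.2 CPM in CAF2 (log2 fold change -3.93 ± 0.35, adjusted p = 1.9e-05), and Bmp3, an atypical member that opposes other BMPs, at 7.23, 3.22, 2.73, 3.53 and 6.61 CPM in CAF1, against 53.6, 45.3, 25.1, 47.2 and 38.2 CPM in CAF2 (log2 fold change -3.17 ± 0.31). Chrdl1, a BMP antagonist, fell with Bmp6, at 0.795, 3.93, 0.264, 8.82 and 10.4 CPM in CAF1, against 21.6, 21.9, 38.4, 37.5 and 71.2 CPM in CAF2 (log2 fold change -3.07 ± 0.70). Inhba and Fstl3, an activin subunit and an activin inhibitor, were thus both higher in CAF1, and Bmp6, Bmp3 and the BMP antagonist Chrdl1 lower.

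Among cytokines that act on macrophages, Csf2 was lower and Il34 higher in CAF1. Csf2, which encodes GM-CSF, was at 2.67, 9.78, 1.85, 7.65 and 1.70 CPM in CAF1, against 38.4, 150.2, 48.3, 90.6 and 49.9 CPM in CAF2 (log2 fold change -3.99 ± 0.54, adjusted p = 0.000271). Il34, a ligand of the CSF1 receptor, was at 171, 169.7, 114, 106 and 201 CPM in CAF1, against 67.8, 64.5, 47.1, 55.1 and 59.6 CPM in CAF2 (log2 fold change 1.37 ± 0.20, adjusted p = 0.00037). Tnfsf9, the ligand of 4-1BB, rose as well, with 167 ± 52.0 CPM across CAF1 and 63.2 ± 25.0 CPM across CAF2 (log2 fold change 1.41 ± 0.30). Il18, an IL1-family cytokine that needs cleavage to act, fell, with 2.90 ± 2.32 CPM across CAF1 and 16.6 ± 5.31 CPM across CAF2 (log2 fold change -2.58 ± 0.53). The groups did not overlap for any of these genes, and 4 of 23 listed cytokines rose while 4 fell (with tumour as a block, 8 and 3). Among chemokines, Cxcl14 had 795, 1464, 679, 1676 and 2214 CPM in CAF1, against 350.3, 511, 674, 242 and 329.8 CPM in CAF2 (log2 fold change 1.70 ± 0.38, adjusted p = 0.00682), a narrow gap, since CAF1 of tumour 8 and CAF2 of tumour 8 lay next to each other.

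Peptide hormones and their relatives were 2 higher and 4 lower of 16. Edn1, endothelin-1, a ligand of the receptor encoded by Ednrb, was at 0.867, 1.67, 0.967, 4.59 and 5.48 CPM in CAF1, against 24.5, 15.1, 11.7, 17.4 and 51.8 CPM in CAF2 (log2 fold change -3.24 ± 0.57, adjusted p = 0.00159). This ligand was thus lower in CAF1 and its receptor gene higher. Stc2, a stanniocalcin, was at 44.2, 70.3, 31.4, 66.5 and 144 CPM in CAF1, against 21.3, 14.4, 13.3, 5.07 and 8.97 CPM in CAF2 (log2 fold change 2.50 ± 0.43). Penk, the precursor of enkephalins, was at 103, 99.1, 71.6, 273 and 229 CPM in CAF1, against 376, 460.4, 529.9, 402 and 405 CPM in CAF2 (log2 fold change -1.49 ± 0.34), with the CAF1 libraries of tumours 10 and 11 closest to CAF2. Among semaphorins, slits, netrins and ephrins 11 of 29 rose and 4 fell (with tumour as a block, 6 and 4), a count of 15 that was 8 without tumour 6 and 9 without CAF1 of tumour 5, CAF2 of tumour 10, tumour 8 or tumour 11. The membrane-bound Sema7a and Sema5a rose, with log2 fold changes of 3.43 ± 0.48 and 2.10 ± 0.44, while the secreted Sema3d and Ntn4 fell with Sema3c, with -1.53 ± 0.22 and -1.13 ± 0.27. Sema3d was at 15.2, 18.5, 25.1, 37.9 and 21.0 CPM in CAF1, against 58.1, 62.0, 84.4, 67.3 and 68.8 CPM in CAF2.

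Serpins and IGF-binding proteins changed in both directions. Serpine2, protease nexin 1, an inhibitor of thrombin and plasminogen activators, was at 4164, 10007, 6449.6, 3253 and 12736 CPM in CAF1, against 311, 477, 566, 259 and 341 CPM in CAF2 (log2 fold change 4.23 ± 0.46, adjusted p = 6.46e-05). Serpinb2, plasminogen activator inhibitor 2, went the other way, with 4.62, 3.93, 2.99, 13.9 and 2.27 CPM in CAF1, against 115, 99.4, 27.5, 104 and 49.8 CPM in CAF2 (log2 fold change -3.82 ± 0.52, adjusted p = 0.000262). Serpina1b, an alpha-1 antitrypsin gene, rose to 48.9 ± 26.4 CPM in CAF1, against 0.306 ± 0.300 CPM in CAF2; its near-identical mouse copies can share reads, so the split among copies is uncertain. Of 21 serpins, 7 rose and 5 fell. Of 6 IGF-binding proteins, 3 rose and 1 fell. Igfbp2 was at 955, 1945, 1400.5, 1548 and 4377 CPM in CAF1, against 90.9, 165, 185, 17.8 and 25.4 CPM in CAF2 (log2 fold change 4.40 ± 0.70, adjusted p = 0.000782). Igfbp3 and Igfbp7 rose with log2 fold changes of 2.29 ± 0.39 and 1.69 ± 0.33, and their endothelial means were 8384 and 12020.0 CPM.

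Complement regulators at the cell surface differed in direction. Cd59a, which blocks the membrane attack complex, was at 182, 173, 98.6, 203 and 397 CPM in CAF1, against 15.8, 21.5, 18.9, 5.07 and 7.79 CPM in CAF2 (log2 fold change 3.94 ± 0.45, adjusted p = 9.15e-05). Cd55, which breaks down the C3 convertases upstream of that complex, fell by 4.38 ± 0.24 on the log2 scale. Collagens were mostly higher: 22 of 34 rose, 1 fell, and the median log2 fold change was 1.70. Col10a1, a short-chain collagen of growth plate cartilage, was at 14.9, 13.7, 20.5, 40.2 and 10.6 CPM in CAF1, against 0, 1.43, 0.178, 0.0746 and 0.296 CPM in CAF2 (log2 fold change 5.85 ± 0.71, adjusted p = 0.000133). Its endothelial mean was 0.805 CPM. Col17a1, a collagen of epithelial hemidesmosomes, was at 49.4, 6.80, 9.58, 1.41 and 2.08 CPM in CAF1, against 0, 0.390, 0.446, 0.522 and 0.493 CPM in CAF2, highest in the tumour 5 library with the most myoepithelial transcripts, and averaged 5.21 CPM in endothelial libraries. Clec3b, tetranectin, a plasminogen-binding lectin, ran at 3.32, 29.3, 1.14, 57.0 and 51.6 CPM in CAF1, against 221, 447, 224, 395 and 488 CPM in CAF2 (log2 fold change -3.65 ± 0.81), and its CAF1 libraries spread widely, with tumours 10 and 11 highest. For the class, leaving out 1 library or tumour gave 53 to 69 rises and 27 to 48 falls; for receptors the ranges were 49 to 65 and 30 to 40.

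Of 441 metabolic genes tested, 57 rose and 35 fell. Among 77 respiratory chain subunits 2 rose and 0 fell (with tumour as a block, 8 and 0), and among 80 cytosolic ribosomal proteins 0 rose and 0 fell. The count for the respiratory chain was 1 without CAF2 of tumour 10, CAF2 of tumour 11, tumour 6, tumour 10 or tumour 11, 4 without CAF1 of tumour 11 or tumour 5 and 6 without CAF1 of tumour 5. One of its rises was Cox4i2, a cytochrome c oxidase isoform that was also among the 10 pericyte markers, at 17.6, 32.3, 28.2, 7.65 and 10.4 CPM in CAF1, against 0.168, 0.390, 0.178, 0.299 and 0 CPM in CAF2 (log2 fold change 6.49 ± 0.58, adjusted p = 1.9e-05). Retinoid handling, which turns vitamin A into the ligand retinoic acid, changed its enzymes and carriers: 7 of 22 genes rose and 1 fell. Crabp1, a cytosolic binder of retinoic acid, was at 303, 371, 1418, 263 and 1552 CPM in CAF1, against 2.78, 23.7, 47.5, 9.03 and 9.76 CPM in CAF2 (log2 fold change 5.40 ± 0.83, adjusted p = 0.000617). Aldh1a2, which makes retinoic acid from retinal, was at 93.2, 89.4, 34.4, 121 and 103 CPM in CAF1, against 13.6, 15.7, 6.96, 15.2 and 10.7 CPM in CAF2 (log2 fold change 2.82 ± 0.32, adjusted p = 8.2e-05). Aldh1a3, which catalyses the same step, was at 20.7, 16.5, 5.45, 25.8 and 13.0 CPM in CAF1, against 359, 316, 318, 445 and 346 CPM in CAF2 (log2 fold change -4.45 ± 0.35, adjusted p = 1.02e-05). The subsets thus each had 1 of these enzymes at the higher level, in all 5 tumours. Stra6, a membrane receptor for retinol uptake, rose, with 14.9 ± 7.08 CPM across CAF1 and 2.19 ± 2.03 CPM across CAF2 (log2 fold change 2.74 ± 0.57).

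**Figure D5:**
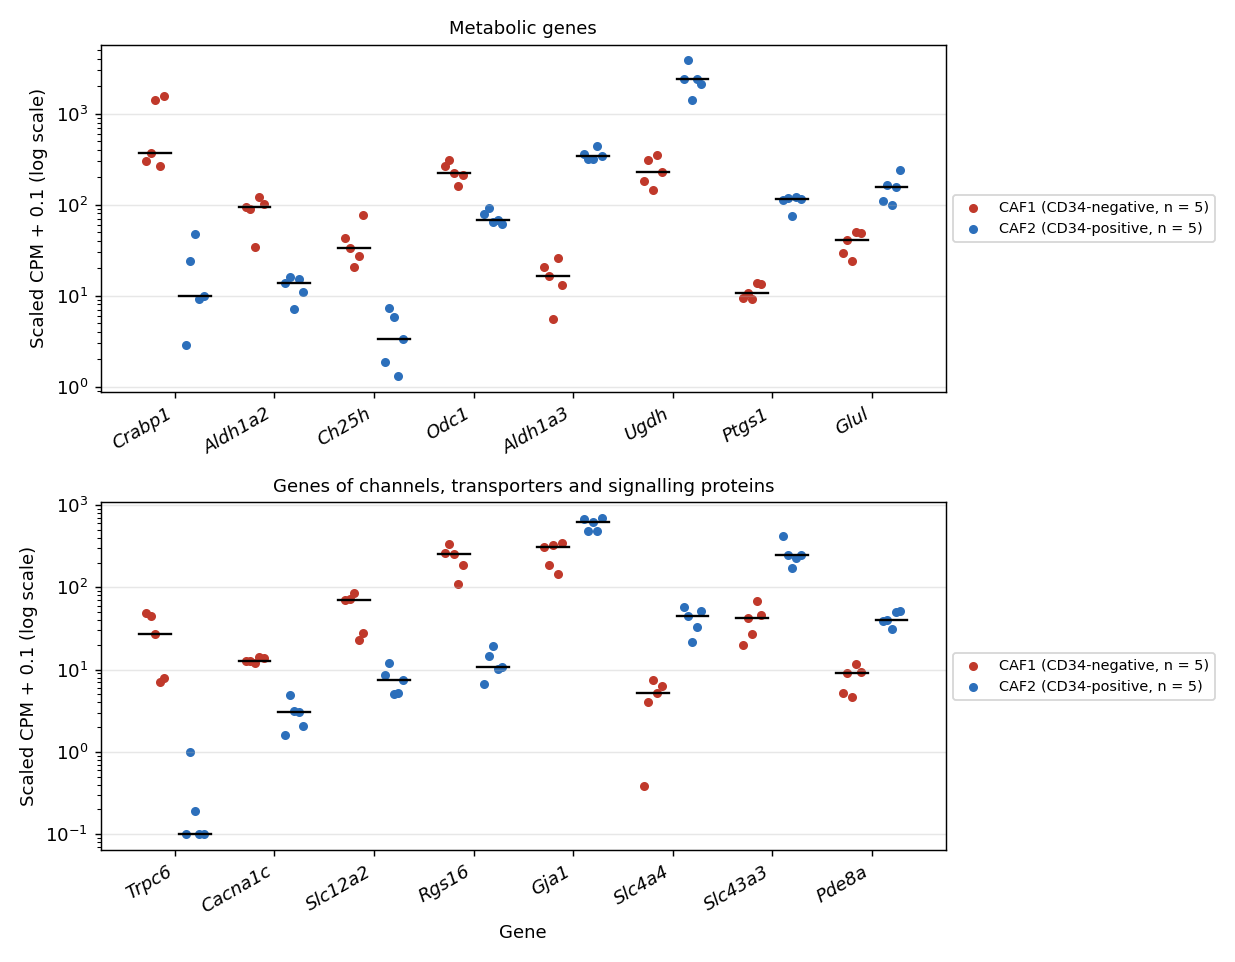
Scaled CPM (log axis, with 0.1 CPM added for plotting) of 8 metabolic genes (upper panel) and 8 genes of channels, transporters and signalling proteins (lower panel) in each library, CAF1 in red on the left and CAF2 in blue on the right of each pair, with a bar at the median. In each panel the first 4 genes lay higher in CAF1 and the last 4 lower, and groups did not overlap.

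Most of the changed steroid enzymes, and the hyaluronan genes Has1 and Ugdh, were lower in CAF1. Of 16 genes of steroid metabolism, 1 rose and 5 fell. Akr1c14, a 3-alpha-hydroxysteroid dehydrogenase, was at 8.38, 13.7, 12.6, 9.53 and 35.9 CPM in CAF1, against 165, 59.7, 137, 45.4 and 104 CPM in CAF2 (log2 fold change -2.70 ± 0.45), and Akr1c18, the 20-alpha enzyme that inactivates progesterone, fell by 5.54 ± 0.55 on the log2 scale. The rise was Ch25h, which makes 25-hydroxycholesterol, at 42.8, 33.5, 20.7, 27.4 and 77.1 CPM in CAF1, against 1.77, 7.15, 5.71, 1.19 and 3.25 CPM in CAF2 (log2 fold change 3.43 ± 0.49, adjusted p = 0.000384). Ugdh, which makes the UDP-glucuronate used in glycosaminoglycans, was at 183, 314, 146, 356 and 229 CPM in CAF1, against 2412, 3859, 1406, 2434 and 2135 CPM in CAF2 (log2 fold change -3.32 ± 0.35, adjusted p = 5.41e-05). Has1, a hyaluronan synthase, was at 304, 1959, 411, 2525 and 1716 CPM in CAF1, against 4707, 10102, 4343, 6822 and 7572 CPM in CAF2 (log2 fold change -2.28 ± 0.57, adjusted p = 0.0131), with CAF1 of tumours 5 and 8 well below the other CAF1 libraries. The 35 genes tested of hyaluronan and glycosaminoglycan enzymes, Has1 and Ugdh among them, were not uniform, since 10 rose and 6 fell. Cemip2, a cell-surface protein linked to hyaluronan breakdown, rose (1.70 ± 0.30), as did the heparan sulfate 6-O-sulfotransferase Hs6st1 (1.35 ± 0.20), while Sulf1, which removes 6-O-sulfates, fell (-1.18 ± 0.27).

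Among 15 prostanoid and eicosanoid enzymes tested, which include enzymes that degrade prostanoids, 1 rose, 7 fell and 7 did not pass. Their median log2 fold change was -0.53. Ptgs1, cyclooxygenase 1, was at 9.32, 10.6, 8.97, 13.5 and 13.4 CPM in CAF1, against 111, 117, 74.3, 120.5 and 116 CPM in CAF2 (log2 fold change -3.28 ± 0.19, adjusted p = 1.17e-06). Ptgis, prostacyclin synthase, was at 8.67, 18.8, 24.5, 42.8 and 17.9 CPM in CAF1, against 116, 132, 91.3, 87.5 and 85.4 CPM in CAF2 (log2 fold change -2.18 ± 0.33). Hpgd, which degrades prostaglandins, was at 14.7, 14.9, 84.0, 28.3 and 64.8 CPM in CAF1, against 79.7, 134, 269, 239 and 261 CPM in CAF2 (log2 fold change -2.25 ± 0.51), with overlapping groups because CAF1 of tumour 8 lay above CAF2 of tumour 5. An enzyme that makes prostanoids and one that removes them therefore fell together. Gstm1, a glutathione S-transferase with close paralogs that can share reads, was at 62.4, 101.3, 69.9, 155 and 194 CPM in CAF1, against 713, 918, 639, 669.6 and 1389 CPM in CAF2 (log2 fold change -2.90 ± 0.36). Gsto1, of another transferase class, rose, with 122 ± 7.27 CPM across CAF1 and 41.5 ± 11.3 CPM across CAF2 (log2 fold change 1.56 ± 0.18). Glul, glutamine synthetase, was at 29.5, 40.8, 23.7, 49.6 and 48.7 CPM in CAF1, against 109, 166, 98.7, 158 and 238 CPM in CAF2 (log2 fold change -2.0 ± 0.28, adjusted p = 0.000285). Odc1, the entry enzyme of polyamine synthesis, was at 266, 310.4, 225, 162 and 213 CPM in CAF1, against 78.3, 91.0, 63.8, 67.2 and 60.5 CPM in CAF2 (log2 fold change 1.71 ± 0.20, adjusted p = 8.87e-05). Fabp5, a fatty acid carrier, also rose, with 173 ± 104 CPM across CAF1 and 31.9 ± 8.27 CPM across CAF2 (log2 fold change 2.45 ± 0.39), and averaged 184 CPM in endothelial libraries.

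Counts for glycolysis and cholesterol synthesis moved with single tumours. Of 22 glycolytic genes, 10 rose and 0 fell (with tumour as a block, 11 and 1), a count of 10 that was 5 without tumour 8 and 6 without tumour 5 or tumour 6. Of 24 genes of cholesterol synthesis, 8 rose and 0 fell, a count of 8 that was 1 without tumour 11, 2 without tumour 6, 4 without tumour 5 and 5 without CAF2 of tumour 11. Sc5d, a late enzyme of that route, was at 25.4, 17.4, 21.2, 12 and 21.2 CPM in CAF1, against 3.70, 7.28, 9.37, 10.2 and 5.72 CPM in CAF2 (log2 fold change 1.42 ± 0.29). It passed in every fit that left out a library or tumour. That holds for each called gene named here, and these were taken with those fits known, so it says nothing about the list. For all metabolic genes, leaving out 1 library or tumour gave 36 to 62 rises and 21 to 37 falls, with 36 rises and 21 falls without tumour 6 and 37 rises without tumour 11.

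Channels, transporters and the machinery of G proteins and cyclic nucleotides had more rises than falls in CAF1, with 81 rises and 31 falls among 366, and the other 254 did not pass. Of 23 genes of calcium entry and release, 9 rose, 1 fell and 13 did not pass, with a median log2 fold change of 0.18. Trpc6, a receptor-operated cation channel, was at 48.2, 44.8, 27.1, 6.94 and 7.75 CPM in CAF1, against 0, 0.910, 0.0892, 0 and 0 CPM in CAF2 (log2 fold change 7.36 ± 0.93). It was highest in CAF1 of tumour 5 and low in CAF1 of tumours 10 and 11, the CAF1 libraries with the lowest pericyte sums. Cacna1c, the pore of the L-type calcium channel, was at 12.6, 12.6, 11.9, 14.4 and 13.8 CPM in CAF1, against 1.51, 4.81, 3.03, 2.99 and 1.97 CPM in CAF2 (log2 fold change 2.20 ± 0.29, adjusted p = 0.000234), with nearly the same level in all CAF1 libraries. Jph2, a junctophilin that links the plasma membrane to calcium stores, was at 17.5, 19.9, 7.30, 9.06 and 5.86 CPM in CAF1, against 1.262, 0.520, 0.357, 0 and 0.0986 CPM in CAF2 (log2 fold change 4.71 ± 0.70). Kcnmb1, the beta subunit of the smooth muscle BK potassium channel, was at 11.1, 17.1, 16.8, 5.06 and 5.10 CPM in CAF1, and every CAF2 library had 0 counts. The fall among genes of calcium entry and release was Atp2b4, a plasma membrane calcium pump (-1.90 ± 0.29).

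Potassium channels had 8 rises and 2 falls among 22, and their count of 10 was 6 without tumour 10 or tumour 11. TRP channels had 4 rises and 1 fall among 12, and their count of 5 was 3 without tumour 11. Ano1, a calcium-activated chloride channel of smooth muscle and of epithelium, was at 104, 82.9, 78.0, 21.8 and 41.2 CPM in CAF1, against 0, 9.75, 0.357, 0.149 and 1.58 CPM in CAF2 (log2 fold change 4.97 ± 0.93). Aqp5, a water channel of glandular epithelium, was at 93.4, 157, 228, 54.5 and 86.5 CPM in CAF1, against 2.10, 36.8, 3.30, 3.66 and 2.27 CPM in CAF2 (log2 fold change 3.74 ± 0.80), and Kcnk1, a potassium leak channel, at 36.8, 34.5, 26.9, 19.4 and 24.2 CPM in CAF1, against 1.60, 7.41, 0.714, 0.672 and 0.0986 CPM in CAF2 (log2 fold change 3.86 ± 0.69). Within CAF2 all of Ano1, Aqp5 and Kcnk1 were highest in tumour 6, the library with the high luminal sum, and their endothelial means were 33.0, 83.0 and 14.6 CPM. Gap junction genes parted: Gja4, connexin 37 of vessels, was at 41.2, 34.3, 49.4, 12.4 and 17.8 CPM in CAF1, against 0, 0.130, 0.0892, 0 and 0 CPM in CAF2, all at or under 3 counts. Gja1, connexin 43, was at 313, 187, 325, 147 and 345 CPM in CAF1, against 675, 482, 618, 491 and 695 CPM in CAF2 (log2 fold change -1.17 ± 0.26, adjusted p = 0.00667). Of 10 connexins and aquaporins, 7 rose and 1 fell (with tumour as a block, 6 and 2).

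Among 205 solute carriers 27 rose and 15 fell, or 20.5%, near the background. Slc12a2, the sodium-potassium-chloride cotransporter NKCC1, was at 70.9, 73.1, 86.1, 22.7 and 28.0 CPM in CAF1, against 8.50, 11.8, 5.0, 5.07 and 7.29 CPM in CAF2 (log2 fold change 2.92 ± 0.39, adjusted p = 0.000258). Slc4a4, a sodium bicarbonate cotransporter, was at 0.289, 3.93, 7.38, 5.06 and 6.23 CPM in CAF1, against 57.0, 44.6, 21.9, 33.0 and 51.1 CPM in CAF2 (log2 fold change -3.21 ± 0.53). Slc43a3, a transporter of purine nucleobases, was at 19.7, 42.0, 27.1, 67.9 and 45.7 CPM in CAF1, against 421, 248, 174, 229 and 249 CPM in CAF2 (log2 fold change -2.71 ± 0.34, adjusted p = 0.000151). Cyclic nucleotide and nitric oxide signalling had 14 rises and 4 falls among 31, with a median log2 fold change of 1.11. Its phosphodiesterases differed by type. Pde1b, driven by calmodulin, was at 18.3, 21.3, 10.5, 6.94 and 6.42 CPM in CAF1, against 0, 0.130, 0.446, 0 and 0.197 CPM in CAF2 (log2 fold change 6.31 ± 0.68). Pde2a, driven by cGMP, rose by 4.45 ± 0.55, but its endothelial mean of 104 CPM was above every CAF1 library. Pde8a, a cAMP-specific form, was at 5.06, 8.94, 4.57, 11.5 and 9.26 CPM in CAF1, against 39.4, 40.2, 30.7, 49.8 and 52.1 CPM in CAF2 (log2 fold change -2.45 ± 0.26, adjusted p = 5.78e-05). Rgs16, which shortens signals of G proteins, was at 265, 341, 252, 111 and 187 CPM in CAF1, against 6.64, 14.4, 19.5, 10.1 and 10.6 CPM in CAF2 (log2 fold change 4.24 ± 0.35, adjusted p = 1.18e-05), one of 10 rises and 4 falls among 33 RGS and G protein genes.

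Adhesion genes showed 14 rises and 5 falls among 73 cadherins and tetraspanins, or 26%, beside 19.5% of all genes tested. The share called was 17.6% of 51 cadherins and protocadherins, below that background, and 45.5% of 22 tetraspanins. The tetraspanin count of 10 was 6 without tumour 6 or tumour 11. Cdh11, the cadherin of mesenchymal cells, was at 323, 275, 264, 279 and 558 CPM in CAF1, against 138, 109.6, 164, 60.4 and 70.9 CPM in CAF2 (log2 fold change 1.65 ± 0.31, adjusted p = 0.00231). Pcdh20, a protocadherin, was at 0, 0.477, 0.352, 2.94 and 1.89 CPM in CAF1, against 44.7, 14.0, 26.6, 23.4 and 16.2 CPM in CAF2 (log2 fold change -4.61 ± 0.70, adjusted p = 0.000583). Of the tetraspanins, Cd82 rose (2.56 ± 0.33) and Tspan18 fell (-1.55 ± 0.17), and neither had overlapping groups. The 5 falls of the class were 3 without tumour 5, tumour 10, the CAF1 library of tumour 10 or the CAF2 library of tumour 11.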

How the data were processed

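Per the labels, sorted cells came from collagenase I and DNase I digests, RNA from an RNeasy Plus Micro kit, and cDNA and libraries from SMARTseq v4 and Ovation Ultralow V2, sequenced over 3 HiSeq lanes. Per the submitters' processing notes, reads were handled on mm10 with HISAT2 2.0.4, SAMtools 1.3.1, Trimmomatic 0.36 and DESeq2 1.26; which program counted reads, with which strand setting and annotation, is not given in the sources used here, so overlapping or antisense genes may share reads. The deposited raw values are counts of reads per Entrez gene. A second deposited table holds normalised values, a linear signal equal to the counts over 1 factor per library. The matrix lists 14118 genes with no total under 72 counts, and 14 without a symbol hold 0.0107% of counts.

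Tests used R 4.3.3, edgeR 4.0.16 (filterByExpr, TMM factors of 0.6477 to 1.394, quasi-likelihood F test, Benjamini-Hochberg adjusted p under 0.05 over 12149 genes; biological coefficient of variation 0.337) on the 10 libraries. SE values are the absolute log2 fold change over the root of F. Libraries of the same tumour come from the same animal; the correlation of their deviations from the group means was 0.0205 to 0.381. The main fit has no block. Alternatives were tumour as a block, RLE factors, library totals alone, DESeq2 1.42.0, no filter, at least 50 counts in 5 libraries, voom with quality weights in limma 3.58.1, limma on log2(normalised value + 1), all 30 libraries, and each library or tumour left out; leaving out the library with the highest myoepithelial sum in CAF1 (tumour 5) and the one with the highest luminal sum in CAF2 (tumour 6) was chosen after seeing the data.

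Members and gene lists were chosen with earlier results of these data known. Named genes are the markers, the 8 largest rises and falls, and as many as 3 members of a list in each direction, at 10 CPM or more in the higher group and with 1 direction in 5 of 5 tumours, fewer where the text needed fewer or where a gene is not reported here, and unchanged transcription factors of high level as counterparts. Promoters are from RefSeq (GRCm38.p6).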

Additional observations from a re-analysis of the deposited data

Results flagged for a closer look

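Of 253 groups of 5 libraries with at least 1 library above 1 CPM, named genes and marker sums together, 15 held a library whose gap to the nearest other, on the log2(CPM + 1) scale, was more than 0.71 of the range of its group. Chance alone gives such a gap in about 1 in 20 groups, and the groups of different genes share libraries. The 4 flags in CAF2 of tumour 6, the library with the high luminal sum, were Aqp5 at 36.8 CPM (2.10 to 3.66 in the other 4 CAF2 libraries), Ovol1 at 1.82 CPM, Gprc5c at 1.17 CPM and, as a low value, Esr1 at 9.62 CPM (20.7 to 24.1 in the others). In CAF1 of tumour 10 the flagged values were low: Heyl at 46.1 CPM, Tnfrsf21 at 70.2 CPM (209.7 to 274 in the other CAF1 libraries) and Hs6st1 at 22.8 CPM. In CAF1 of tumour 8, Aldh1a2 at 34.4 CPM and Bmp6 at 0.879 CPM were low. In CAF1 of tumour 5, Gsto1 at 109.4 CPM and Slc4a4 at 0.289 CPM were low, and in CAF1 of tumour 11 Cdh11 was high at 558 CPM. In CAF2, Epas1 was high at 6.22 CPM and Sema5a low at 1.09 CPM in tumour 5, and Ptgs1 was low at 74.3 CPM in tumour 8. Each of these genes passed the test without the library concerned. Named genes were taken with the leave-out fits known, so this passing was set by the choice of genes and is no check on these libraries.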

How the results depend on the processing

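With tumour as a replicate block, 2445 genes passed (1321 higher and 1124 lower in CAF1), 2097 of them among the 2370, all 2370 kept their sign, and the block changed no call of a gene named in the text. RLE factors gave 2352 calls, library totals alone 1877, no filter 2659, the filter of 50 counts 1846, DESeq2 3113, voom 3161, limma on normalised values 2459 and all 30 libraries 2233. Leaving out 1 library or 1 tumour gave 1663 to 2390 calls, 944 to 1407 higher and 652 to 1057 lower, with the 652 without tumour 6 (702 without its CAF1 library). Of 250 called genes that the naming rule picked, none changed sign under any of these settings, 68 lost their call when some library or tumour was left out, 9 with the block and 46 with all 30 libraries. The text names 126 of the 250, taken with these values known and none of them among the 68, so the named genes say nothing about the stability of the rest. Thy1, which did not pass, ranged from -0.035 to 0.444 over the leave-outs and changed sign to -0.029 without CAF1 of tumour 10, -0.035 and -0.017 without CAF2 of tumours 5 and 8, and -0.012 without tumour 5. Among classes, counts moved more than 1.5 times for transcription factors (36 rises with 50 counts, 45 falls with voom, 11 falls with all 30 libraries), receptors (37 rises with 50 counts), metabolism (37 rises with library totals alone) and adhesion (22 rises with DESeq2). The cause of these shifts was not tested, except that the stricter filter tests fewer genes. Counts of list members moved by more than 1.5 times in 22 lists without tumour 11, in 19 without tumour 6, in 19 with 50 counts and in 3 with the block. Median log2 fold changes of all genes shifted by less than 0.1 under every scaling.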
